A study of Mus musculus with 6 samples.

Results

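Melanocytes and Schwann cells both descend from the neural crest, and the mouse choroid, the vascular and pigmented layer behind the retinal pigment epithelium (RPE), holds both. A set of 9 genes that mark these lineages was followed in RNA from RPE-enriched tissue: the transcription factor gene Sox10, the receptor genes Ednrb, Kit and Mc1r, the surface and melanosome genes Gpnmb and Cd59a, and the myelin genes Mbp, Pmp22 and Cnp. The members were the named genes that had an entry in the deposited table, matched by symbol and not by a cut on their values. The named genes were chosen with earlier results of these data known. Of the 9, 8 had an entry, among 14008 entries with a gene name, and Mc1r was not analysed here. All 8 passed the filter on low values, a mean of at least 1 CPM (reads of a gene scaled to the library total), which left 11342 genes.

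The libraries came from male mice of the inbred strain C57BL/6J, aged 8 to 10 weeks, with no transgene or treatment named in the labels. There were 3 libraries at circadian time CT23 and 3 at CT1, shortly before and shortly after subjective dawn, and each library pooled 2 RPE samples. The front of the eye and the neural retina had been taken off, and RPE cells were shaken loose by a short sonication of the eyecup that was left, which includes choroid and sclera, so choroidal cells can enter the sample. In such bulk RNA, fewer cells of a type and less RNA per cell cannot be told apart. The kit reads transcript 3′ ends, and such reads do not scale with transcript length, so CPM levels are compared between genes directly.

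In the neural crest, SOX10 switches on MITF, the master regulator of pigment cells, and in glia it drives myelin genes. KIT, the receptor for stem cell factor, and EDNRB, the receptor for endothelins, keep melanocyte precursors alive and migrating. Several of the genes serve other ocular cells as well: Ednrb is used by Müller glia and astrocytes, Gpnmb by RPE and macrophages, Kit by mast cells, and Pmp22 by fibroblasts and endothelium.

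Library totals lay between 12612330 and 13651486 reads. Crystallin transcripts, which belong to the lens, took 61.2%, 58.7% and 16.4% of the listed reads in CT23 replicates 1, 2 and 3, and 1.84%, 10.2% and 12.8% in CT1 replicates 1, 2 and 3. CPM values are scaled to the full totals. On that scale crystallin transcripts stood at 197580, 179680 and 23359 at CT23, against 2329, 14818 and 19281 at CT1. Markers of other cells differed between the times in the same libraries. At CT23 all 17 lens and all 21 rod genes tested lay higher, with median log2 folds of 3.17 and 0.57, while 12 of 12 skeletal muscle genes, 12 of 13 fibroblast genes, 12 of 13 macrophage genes and 12 of 14 RPE genes lay lower, with medians of -1.41, -0.31, -0.34 and -0.22. None of these list genes passed the test described next, and the part of these cells in the members' values was not tested except where a value is given.

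No member differed between CT23 and CT1 past the threshold. By limma on log2(CPM + 1), at an adjusted p of 0.05 over all genes tested, 0 of the 8 members were called, against 0 of 11342 genes (0%). At an unadjusted p under 0.05 there was 1 member, Ednrb, lower at CT23, against 2469 genes (21.8%) in either direction and 9.39% lower at CT23. EdgeR's quasi-likelihood test, limma-voom and DESeq2 on the recovered reads also called 0 members, while over all genes they called 0, 0 and 133. Log2 folds are CT23 minus CT1 throughout; 5 of the 8 were negative and their median was -0.078, beside 47.8% negative and a median of 0.014 over all genes tested. On totals recomputed without crystallin reads the members' median was 0.060, beside 0.17 over all genes tested. In 3 members, Ednrb, Gpnmb and Mbp, all CT23 libraries lay below all CT1 libraries, and in 0 members above. Over all genes tested 27.6% had groups that did not overlap, 11.3% lower at CT23 and 16.3% higher.

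**Figure D1:**
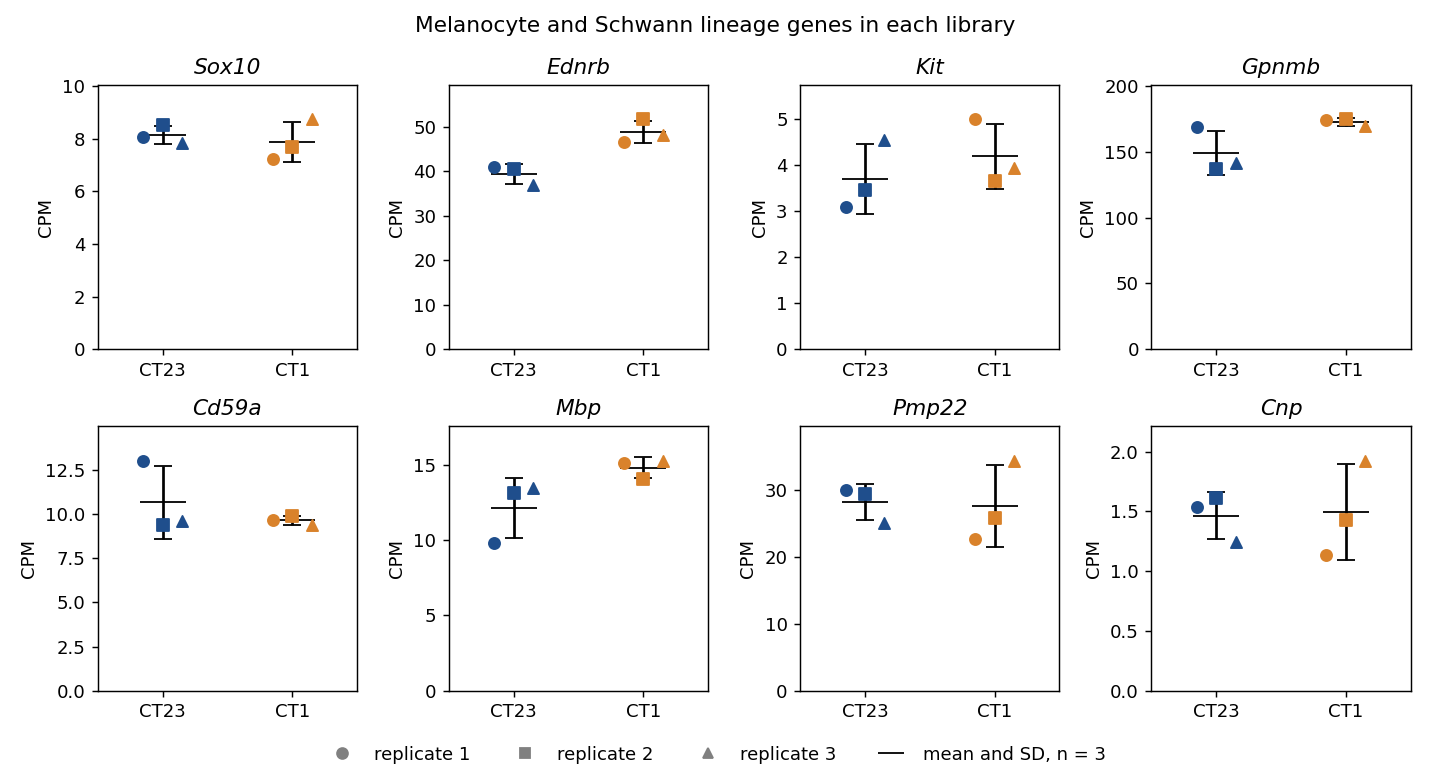
Expression of the 8 members in each library, in CPM on axes that start at 0, with CT23 left of CT1. Symbols stand for replicates 1, 2 and 3, and bars for the mean ± SD (n = 3 each). The groups do not overlap for Ednrb, Gpnmb and Mbp; for Gpnmb the highest CT23 library is at 168 CPM and the lowest CT1 library at 169 CPM.

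Sox10, the transcription factor gene at the head of the lineage, varied least among the members. Sox10 (chromosome 15, 79154908 to 79165240, minus strand, GENCODE M21 on mm10) was at 8.06, 8.53 and 7.85 CPM in replicates 1, 2 and 3 of CT23, against 7.25, 7.69 and 8.74 CPM in those of CT1. Both the lowest and the highest library were CT1 libraries, and the groups overlapped. Its log2 fold was 0.043 (SE 0.103; limma adjusted p = 0.840), with a 95% interval of -0.19 to 0.28, and it was -0.0095 without CT1 replicate 1 and 0.22 on totals without crystallin reads, where the median over all genes tested was 0.17. Over the 6 libraries its coefficient of variation (SD over mean) was 6.84%, beside the 9.69% that counting 106.5 reads on average would give. Of 2543 genes with means within 1.5-fold of its own, 7.0% varied less. Mitf, the target of SOX10 that RPE also expresses, averaged 19.1 ± 1.57 CPM in the CT23 libraries and 21.9 ± 1.01 CPM in those of CT1 (SD, n = 3 per time), with a log2 fold of -0.19 (limma adjusted p = 0.297) and overlapping groups. Pax3, which acts with SOX10 on Mitf and was picked out with its values in view, stood at 8.64, 3.92 and 8.14 CPM at CT23 and at 14.3, 8.01 and 4.96 CPM at CT1. It was highest in CT1 replicate 1, the library where Sox10 was lowest.

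Ednrb, the endothelin receptor gene, stood furthest from no difference among the members. Ednrb (chromosome 14, 103814625 to 103844402, minus strand) measured 40.9, 40.4 and 36.9 CPM in replicates 1, 2 and 3 of CT23, against 46.6, 51.6 and 48.2 CPM in those of CT1. Every CT23 library lay below every CT1 library, and the mean was 39.4 ± 2.21 CPM in the CT23 libraries, against 48.8 ± 2.56 CPM in the CT1 libraries (SD, n = 3 per time). The log2 fold was -0.30 (SE 0.0938; 95% interval -0.52 to -0.086) with an unadjusted limma p of 0.0122 and an adjusted p of 0.133. In the authors' deposited table, whose fold runs CT1 over CT23, the log2 fold was 0.31 with an unadjusted p of 0.0373, the only 1 of the 8 members under 0.05 there. Once the library totals were recomputed without crystallin reads, the fold was -0.11 and the median over all genes was 0.17 instead of 0.014; relative to that median it was -0.28. Of 11 Müller glia and astrocyte markers tested, 7 lay higher at CT23; the sums of that list were 1087 to 1328 CPM at CT23 and 1041 to 1199 CPM at CT1, and Gfap had no entry.

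Gpnmb, a glycoprotein gene of melanosomes and lysosomes, was the most abundant member. Gpnmb (chromosome 6, 49036546 to 49070929, plus strand) measured 168, 137 and 141 CPM in replicates 1, 2 and 3 of CT23, against 174, 174 and 169 CPM in those of CT1. The CT1 libraries lay close together, with a coefficient of variation of 1.76%, beside 11.4% at CT23, where replicate 1 came within 1 CPM of the lowest CT1 library. The log2 fold was -0.22 (SE 0.126; limma adjusted p = 0.349; 95% interval -0.51 to 0.073). Most RPE and macrophage markers lay lower at CT23 in the same libraries, with 0 calls: the RPE sums were 1050, 972 and 799 CPM at CT23 and 1123, 1458 and 971 CPM at CT1, and the macrophage sums 57.3, 75.8 and 62.6 CPM at CT23 and 74.8, 83.4 and 109 CPM at CT1. Both sums overlapped between the times, and their part in the Gpnmb values was not tested.

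The promoters of Ednrb and Gpnmb are shown because these are the pair with the most alike profiles among the non-overlapping members. Each runs from 250 bases before to 50 after a RefSeq start (GRCm38.p6), at chr14:103843652-103843951 on the minus strand for Ednrb and chr6:49036268-49036567 on the plus strand for Gpnmb. Capitals mark matches to ACAAAG, a core that SOX factors bind, on either strand.
Ednrb: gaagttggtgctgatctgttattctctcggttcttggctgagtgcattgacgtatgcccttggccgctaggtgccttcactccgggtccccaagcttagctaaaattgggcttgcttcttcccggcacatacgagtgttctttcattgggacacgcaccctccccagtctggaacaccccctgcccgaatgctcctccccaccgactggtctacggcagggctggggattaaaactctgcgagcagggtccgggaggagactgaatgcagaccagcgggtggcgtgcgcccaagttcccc
Gpnmb: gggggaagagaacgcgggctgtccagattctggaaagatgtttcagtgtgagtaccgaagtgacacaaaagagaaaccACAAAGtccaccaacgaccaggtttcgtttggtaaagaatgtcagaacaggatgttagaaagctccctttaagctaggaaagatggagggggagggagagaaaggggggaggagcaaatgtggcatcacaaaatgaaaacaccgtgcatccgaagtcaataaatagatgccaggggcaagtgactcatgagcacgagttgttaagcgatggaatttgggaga
Gpnmb held 1 match, 172 bases before the start, and Ednrb none; 18.7% of 32851 promoters of this length hold at least 1. Neither window held CACGTG, the E-box that clock factors and MITF bind, which 7.15% of promoters hold, nor CATGTG, the core of the M-box of pigment genes, which 14.2% hold. These matches are descriptions of the letters and were not tied to the values.

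The Kit receptor gene did not separate the times. Kit (chromosome 5, 75574916 to 75656722, plus strand) measured 3.08, 3.46 and 4.55 CPM in replicates 1, 2 and 3 of CT23, against 4.99, 3.65 and 3.92 CPM in those of CT1. The groups overlapped, with a log2 fold of -0.15 (SE 0.158; limma adjusted p = 0.614; 95% interval -0.51 to 0.22). The fold turned to 0.0051 on totals without crystallin reads and to 0.11 without CT23 replicates 1 and 2; with 1 library left out it ran from -0.27, without CT23 replicate 3, to -0.040, without CT1 replicate 1. With 42 to 66 reads per library, counting alone gives a coefficient of variation of 13.8%, beside 18% observed. Of 11 mast cell markers 1 had an entry, Hdc, at 0.733, 0.538 and 0.953 CPM at CT23 and at 0.604, 0.396 and 0.222 CPM at CT1, or 3 to 13 reads a library. Ocular surface epithelium genes were lowest and highest in the same libraries as Kit: their sums were 748, 1188 and 1703 CPM at CT23 and 2211, 1358 and 2017 CPM at CT1. Their part in the Kit values was not tested.

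The ligands of these receptors were also measured. Kitl, which encodes stem cell factor, the ligand of KIT, was at 7.40, 7.68 and 6.67 CPM at CT23 and at 7.71, 8.48 and 11.5 CPM at CT1. Its groups did not overlap, by a margin of 7.68 against 7.71 CPM, with a log2 fold of -0.29 (limma adjusted p = 0.279). Edn3, the endothelin that acts on melanocyte precursors, was the most abundant endothelin transcript, at 36.6, 34.95 and 34.8 CPM at CT23 and at 28.6, 27.8 and 38.6 CPM at CT1. It had a log2 fold of 0.17 (limma adjusted p = 0.472), with CT1 replicate 3 above every CT23 library. Edn1 and Edn2 were near 1 to 2 CPM on average, with log2 folds of -0.14 and 0.43 and overlapping groups. Ednra, the other endothelin receptor gene, averaged 2.64 ± 0.926 CPM in the CT23 libraries and 3.15 ± 1.51 CPM in those of CT1 (SD, n = 3 per time), far below Ednrb in every library. Pomc and Asip, which encode the precursor of the MC1R agonist and its antagonist, had no entry. Of 21 ligand and signalling genes tested, 9 lay higher and 12 lower at CT23, 0 were called by limma and the median log2 fold was -0.032. The smallest p belonged to Adcy6, an adenylyl cyclase gene, at 7.40, 5.84 and 5.79 CPM at CT23 and at 4.38, 4.76 and 3.70 CPM at CT1 (log2 fold 0.47; limma adjusted p = 0.115). Rps6ka1, a kinase gene downstream of the MAP kinase path, was next, with a log2 fold of -0.45 (limma adjusted p = 0.166).

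**Figure D2:**
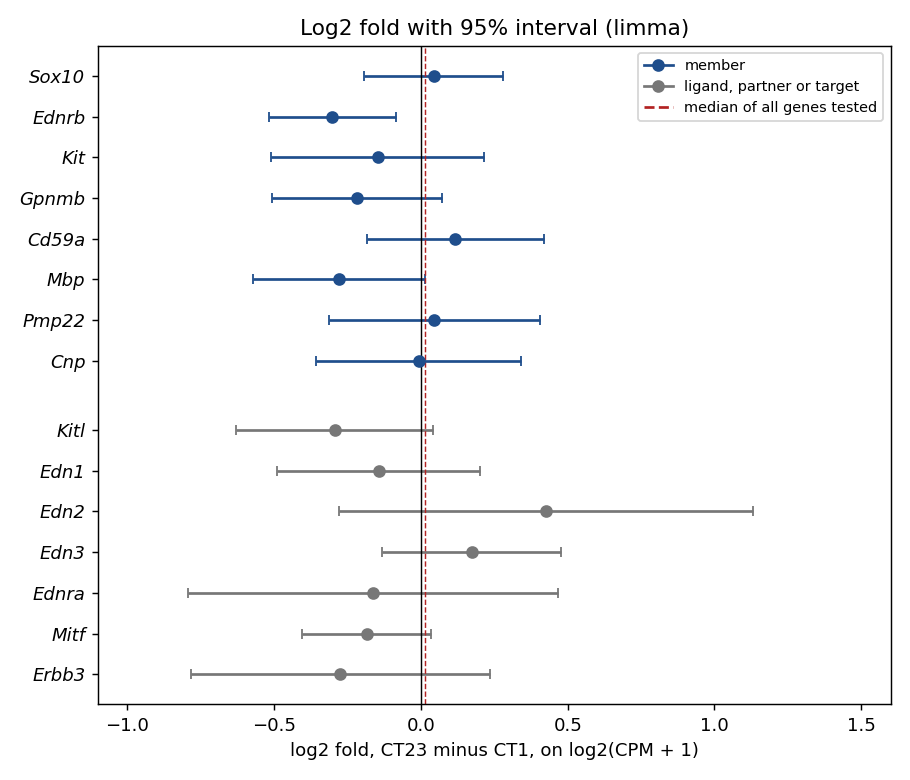
Log2 fold (CT23 minus CT1, on log2(CPM + 1)) with its 95% interval from limma for the 8 members and for ligands, partners and targets; the dashed line is the median of all genes tested, 0.014. Among the members the interval excludes 0 for Ednrb, before adjustment, and none passed the adjusted threshold.

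Cd59a, which encodes a membrane anchored inhibitor of the complement attack complex, was high in 1 library. Cd59a (chromosome 2, 104095801 to 104115354, plus strand) measured 13.0, 9.37 and 9.61 CPM in replicates 1, 2 and 3 of CT23, against 9.67, 9.91 and 9.40 CPM in those of CT1. The other 5 libraries lay between 9.37 and 9.91 CPM. The log2 fold was 0.12 (SE 0.131; limma adjusted p = 0.633; 95% interval -0.18 to 0.42) and -0.023 without CT23 replicate 1, the library richest in crystallin reads; it was 0.30 on totals without those reads. Its paralog Cd59b had no entry; transcripts of the 2 genes share a stretch of up to 104 identical bases, and of up to 57 within their last 500 bases, so the counting of reads between them is uncertain. Of 14 complement genes tested, a list that includes Cd59a, 4 lay higher and 10 lower at CT23, 0 were called by limma and the median log2 fold was -0.31. The groups did not overlap in 8 of them, 2 higher and 6 lower at CT23, beside 27.6% of all genes tested, 16.3% higher and 11.3% lower. Vtn, which encodes vitronectin, another inhibitor of the attack complex, was at 6.15, 5.84 and 5.28 CPM at CT23 and at 3.55, 4.12 and 3.33 CPM at CT1 (log2 fold 0.53; limma adjusted p = 0.0771). Cr1l, which encodes the mouse regulator Crry, was at 5.57, 6.91 and 6.97 CPM at CT23 and at 9.37, 8.88 and 9.48 CPM at CT1 (log2 fold -0.46; limma adjusted p = 0.0906). The complement component genes C4b and C1ra had log2 folds of -0.73 and -0.44 and limma adjusted p of 0.110 and 0.141.

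No myelin gene differed between the times past the threshold. Mbp, which encodes myelin basic protein (chromosome 18, 82475146 to 82585637, plus strand), measured 9.82, 13.1 and 13.4 CPM in replicates 1, 2 and 3 of CT23, against 15.1, 14.03 and 15.3 CPM in those of CT1. All CT23 libraries lay below all CT1 libraries, with CT23 replicate 1 far the lowest. The log2 fold was -0.28 (SE 0.127; limma adjusted p = 0.248; 95% interval -0.57 to 0.014), and it was -0.15 without CT23 replicate 1. Mbp has 10 annotated transcript ends, some of them of isoforms that non-myelinating cells use, and the table gives 1 value for the gene.

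Pmp22, which encodes a membrane protein of peripheral myelin (chromosome 11, 63128982 to 63159547, plus strand), measured 30.0, 29.4 and 25.1 CPM in replicates 1, 2 and 3 of CT23, against 22.6, 25.8 and 34.4 CPM in those of CT1. The CT1 libraries spanned all of the CT23 values. The log2 fold was 0.046 (SE 0.156; limma adjusted p = 0.886; 95% interval -0.31 to 0.40); it was -0.082 without CT1 replicate 1 and 0.23 on totals without crystallin reads. CT1 replicate 3, the highest for Pmp22, was also the highest for fibroblast genes, whose sums were 795, 940 and 855 CPM at CT23 and 1031, 1035 and 1906 CPM at CT1; their part in the Pmp22 values was not tested.

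Cnp, which encodes an enzyme of the myelin sheath that cleaves cyclic nucleotides (chromosome 11, 100574904 to 100591729, plus strand), was the lowest member. Cnp was at 1.54, 1.61 and 1.25 CPM in replicates 1, 2 and 3 of CT23, against 1.13, 1.43 and 1.93 CPM in those of CT1. These values rest on 15 to 26 reads a library, and the exact Poisson 95% intervals of the lowest library (0.634 to 1.87 CPM) and the highest (1.26 to 2.82 CPM) overlap. The observed coefficient of variation was 19.0%, beside 22.5% from counting alone. The log2 fold was -0.0078 (SE 0.151; limma adjusted p = 0.982; 95% interval -0.36 to 0.34), and it was 0.058 without CT23 replicate 3 and 0.11 without CT1 replicate 3. The end of Cnp lies within Dnajc7, a chaperone gene on the other strand, also picked out with its values in view, which stood at 2.34, 4.07 and 4.77 CPM at CT23 and at 5.06, 4.12 and 3.63 CPM at CT1. The sources used here do not give whether counting used strand, so reads of the pair may not be told apart.

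Pmp22 and Cnp had the most alike profiles of all 28 member pairs. The root mean square difference of their log2(CPM + 1) values, each centred on the gene's mean over the 6 libraries, was 0.0561. The Cnp to Pmp22 ratio of CPM stayed between 0.0497 and 0.0560, whereas the Mbp to Pmp22 ratio was 0.328, 0.446 and 0.535 at CT23 and 0.669, 0.545 and 0.444 at CT1. Next came Sox10 and Cnp (0.0801, as large as the 0.0802 by which Sox10 itself varied on this scale) and Ednrb and Gpnmb (0.10). The least alike were Cd59a and Mbp and also Kit and Pmp22, each at 0.342. Cnp rests on 15 to 26 reads a library, and counting alone gives it a coefficient of variation of 22.5%, beside 19.0% observed. The steady Cnp to Pmp22 ratio and the nearness of Cnp to Sox10 can therefore not be told from counting error. The 6 libraries share these values' depth and composition, and no test was made of likeness.

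**Figure D3:**
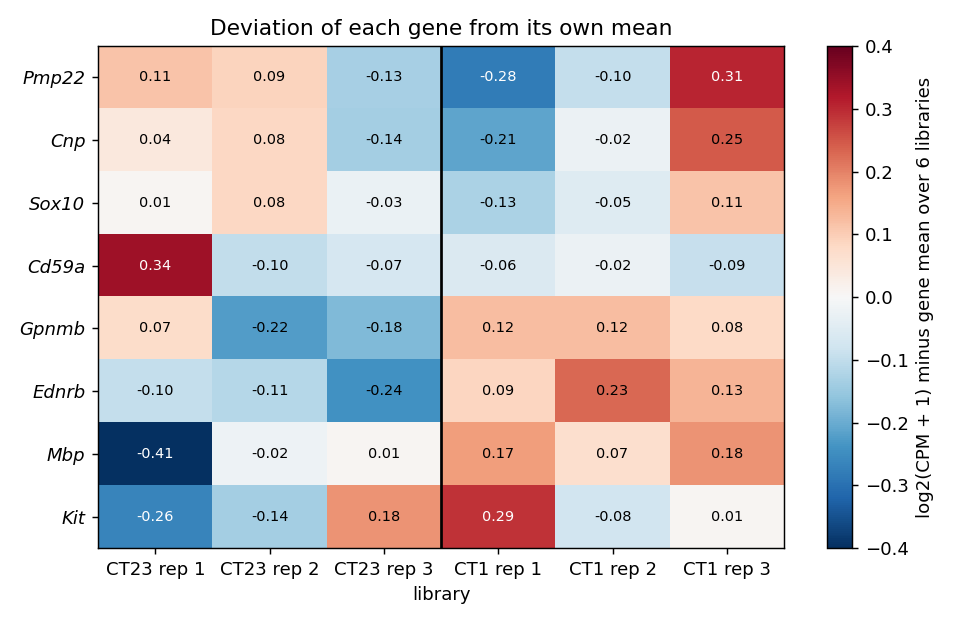
Each member's log2(CPM + 1) minus its mean over the 6 libraries, with the CT23 libraries left of the line and the CT1 libraries right. Pmp22, Cnp and Sox10 are all lowest in CT1 replicate 1 and highest in CT1 replicate 3; Ednrb and Mbp are at or below 0.01 in every CT23 library and above it in every CT1 library.

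The promoter of Cnp (chr11:100574689-100574988, plus strand, RefSeq, GRCm38.p6) is shown because Cnp and Pmp22 had the most alike profiles; capitals mark a match to the SOX core ACAAAG.
Cnp: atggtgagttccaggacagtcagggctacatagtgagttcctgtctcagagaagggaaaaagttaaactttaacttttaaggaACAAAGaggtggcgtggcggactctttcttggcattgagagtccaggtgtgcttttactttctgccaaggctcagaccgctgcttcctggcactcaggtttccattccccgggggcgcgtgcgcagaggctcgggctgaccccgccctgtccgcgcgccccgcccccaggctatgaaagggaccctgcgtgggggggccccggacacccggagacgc
The match lay 167 bases before the start, and the window held neither CACGTG nor CATGTG. The 4 RefSeq start windows of Pmp22, which is known to be read from alternative promoters, held none of the 3 motifs. Reads from transcript ends do not show which start was used.

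Among all genes tested, the profiles nearest to the members' were named by the same root mean square measure over 6 libraries, out of 11341 other genes each. Nearest to Sox10 were Hnrnpul1 (0.00663), Tfap2b (0.0114), a transcription factor gene of neural crest and retina, and Lrrc58 (0.0196). Nearest to Ednrb were Snhg18 and Ufc1 (0.0210 and 0.0226), and to Kit were Orc5, Slc7a1 and Socs2 (0.0190 to 0.0343). Socs2, which encodes an inhibitor of cytokine signalling, was at 3.44, 3.92 and 4.84 CPM at CT23 and at 5.14, 3.96 and 4.29 CPM at CT1. Nearest to Gpnmb were Slc35c2, Mtfr1l and Papd4, to Cd59a Cnot4, Reln and Gm37180, to Mbp Gcc1, Chp1 and Tmbim1, to Pmp22 Gm45223, Stard5 and Zfp974, and to Cnp Fam109a, Cyb5r3 and Trpc4ap. None of these genes belongs to the melanocyte, Schwann or oligodendrocyte lists used here. With so many genes and 6 libraries, near matches are frequent.

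By level the members ran from Gpnmb, at 161 ± 16.96 CPM over the 6 libraries (SD), through Ednrb (44.1 ± 5.57), Pmp22 (27.9 ± 4.22), Mbp (13.5 ± 1.98), Cd59a (10.2 ± 1.42), Sox10 (8.02 ± 0.548) and Kit (3.94 ± 0.711) to Cnp (1.48 ± 0.282 CPM). Each gene lay above the next in all 6 libraries, except that Mbp lay above Cd59a in 5, since CT23 replicate 1 was low for Mbp and high for Cd59a. Among the 14008 named entries the mean of Gpnmb was at the 99.6th percentile, that of Sox10 at the 78.6th and that of Cnp at the 29.3rd. The spread of Ednrb, Gpnmb and Pmp22 was 3.05, 4.87 and 2.91 times what counting gives, and that of Sox10 and Cnp 0.705 and 0.844 times.

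The lineage label was set against defining markers. For melanocytes, Sox10, Ednrb, Kit and Pax3 were present in every library, and Dct, Tyrp1, Pmel and Mlana were at 1809, 174, 151 and 77.4 CPM on average (Pmel and Mlana, like S100b in what follows, were picked out with their values in view), but RPE makes melanin too and expresses these 4. For Schwann cells, S100b, a calcium binding protein gene of Schwann cells and astrocytes, was at 41.5, 69.5 and 55.3 CPM at CT23 and at 57.3, 64.6 and 91.8 CPM at CT1, and Ngfr and Erbb3 were present in every library. Egr2, Prx and Mag, genes of myelinating Schwann cells, had no entry. For oligodendrocytes, which myelinate the optic nerve, Mog, Mobp, Opalin, Cldn11, Olig1 and Olig2 had no entry. Mbp and Pmp22, at 13.5 and 27.9 CPM on average, could therefore not be set against those genes of myelinating cells. The Schwann side of the label was checked less fully than the melanocyte side. The melanocyte side was not settled by these markers either. Sox10 is shared with Schwann cells, Ednrb and Kit serve other ocular cells, and Mc1r was not analysed.

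**Figure D4:**
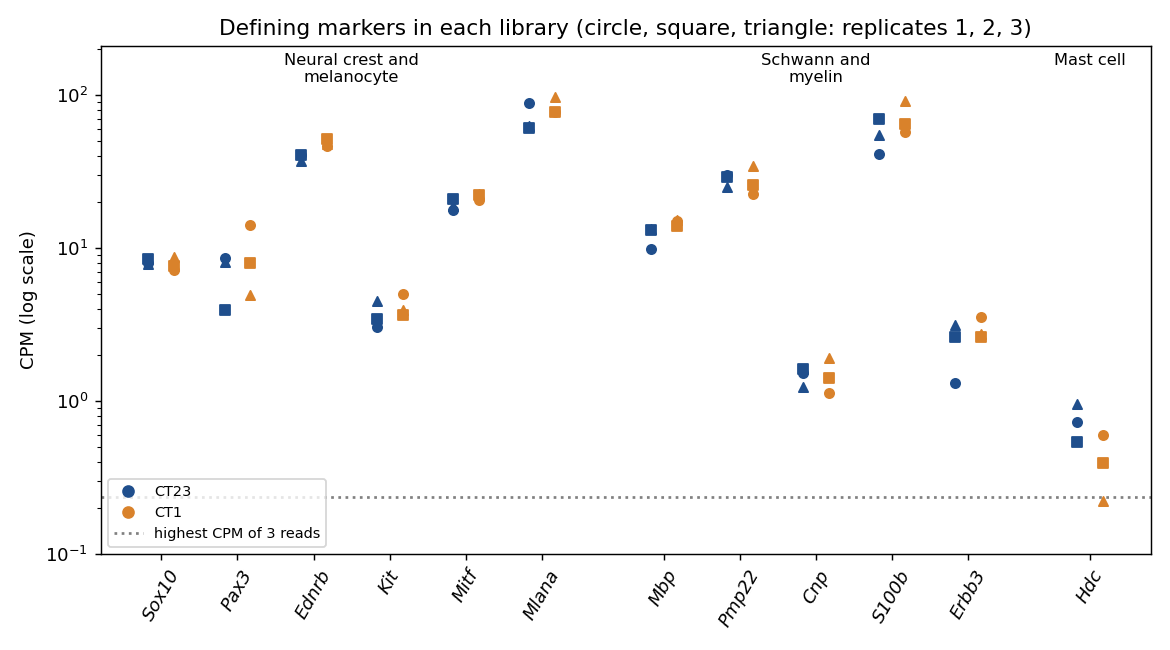
Expression of neural crest, melanocyte, Schwann and mast cell markers in each library, in CPM on a log axis, with CT23 left of CT1 for each gene and symbols for replicates 1, 2 and 3. Hdc lies under 1 CPM in all 6 libraries, between 0.222 and 0.953 CPM, while Mbp lies between 9.82 and 15.3 CPM. The dotted line marks the highest CPM of 3 reads, 0.238.

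Other genes of the lineages gave 0 calls by limma as well. Of 18 melanocyte and pigment genes tested, 6 lay higher and 12 lower at CT23, with a median log2 fold of -0.10. Their 2 smallest p belonged to Met, the receptor gene for hepatocyte growth factor, and Rab38, which routes enzymes to melanosomes, with log2 folds of -0.59 and -0.55 and a limma adjusted p of 0.0736 each. Tyrp1, a melanin enzyme gene, was at 173, 151 and 156 CPM at CT23 and at 185, 180 and 201 CPM at CT1 (log2 fold -0.24; limma adjusted p = 0.293). Of 21 Schwann and peripheral myelin genes tested, 8 lay higher and 13 lower, with a median of -0.12. Among them Ngfr, the nerve growth factor receptor gene of immature and non-myelinating Schwann cells, was at 4.40, 4.69 and 4.55 CPM at CT23 and at 2.49, 2.54 and 3.04 CPM at CT1. Its log2 fold was 0.59 (SE 0.114; limma adjusted p = 0.0736), opposite in sign to that of Mbp. Axon markers lay the same way: 8 of 9 tested were higher at CT23, with a median of 0.29 and 0 calls. Their sums were 189, 172 and 151 CPM at CT23 and 126, 147 and 139 CPM at CT1, without overlap. Most of each sum was Ncam1, at 138.3, 131.6 and 110.7 CPM at CT23 and at 92.2, 111.1 and 108.1 CPM at CT1. The groups of Ncam1 itself overlapped. The part of axon markers in the Ngfr values was not tested. Sox2, a gene of immature Schwann cells and of Müller glia, had a log2 fold of 0.64 (limma adjusted p = 0.130), and Cryab, a small heat shock protein gene that lens holds in bulk, had one of 2.21 (limma adjusted p = 0.0922).

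Of 9 SOX10 target genes tested, 4 of them members, 1 lay higher and 8 lower at CT23, with a median log2 fold of -0.20 and 0 calls by limma. On totals without crystallin reads the medians were -0.016 for these targets, 0.056 for the melanocyte and pigment genes and 0.025 for the Schwann genes, against 0.17 over all genes tested. Dct, which encodes a melanin enzyme, was at 1666, 1585 and 1427 CPM at CT23 and at 1955, 2215 and 2007 CPM at CT1 (log2 fold -0.40; limma adjusted p = 0.452). Erbb3, the receptor gene through which axonal neuregulin sustains Schwann cells, was at 1.32, 2.61 and 3.15 CPM at CT23 and at 3.55, 2.62 and 2.74 CPM at CT1 (log2 fold -0.27; limma adjusted p = 0.494). Of 7 oligodendrocyte genes tested, 6 lay lower at CT23; besides Mbp and Cnp these included Myrf and Ermn, with log2 folds of -0.71 and -0.49, and Ermn was also among the RPE markers listed here. Gpr37 lay higher, at 0.60, with a limma adjusted p of 0.123.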

How the data were processed

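RNA from 6 RPE-enriched libraries was compared, 3 of CT23 and 3 of CT1 by their titles; per the labels, 2 RPE samples went into each, and the QuantSeq 3′ kit was used. Whether pools came from separate animals is not stated, so p-values measure the spread between these libraries, which may be technical. The submitters' processing notes name mm10, Bowtie2 2.1.0, HTSeq and edgeR 3.24.1, without roles; the sources used here give neither gene filters nor a strand setting. Per the file headers, the authors deposited CPM, a log2 fold, which by its values is the ratio of mean CPM of CT1 over CT23, and an unadjusted p-value; the last 2 are cited only as theirs. All CPM values (100%) were whole multiples of 1 read within 0.01 read, which gave the library totals. Entries with no gene name (75 of 14083) were left out; they held 0.0432% to 0.102% of listed reads.

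Limma 3.58.1 with a mean-variance trend was fitted to log2(CPM + 1) over 11342 genes averaging 1 CPM or more, time as the only factor, two-sided, with Benjamini-Hochberg adjustment; folds on this scale understate changes of low genes. EdgeR 4.0.16 and DESeq2 1.42.0 ran on the recovered reads as alternatives. The fits were tested on simulated data. Members and lists were chosen with earlier results of these data known. Named genes were all members, the 4 smallest p of each other list, fixed ligands and partners, the highest marker genes and the 3 nearest profiles; others are marked, and some genes the rule names are not reported here. Intervals and floors (3 reads) cover counting error only. All 8 members matched GENCODE M21 on mm10, and promoters came from RefSeq on GRCm38.p6, which held 7 of the 9 symbols.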

Additional observations from a re-analysis of the deposited data

How the results depend on the processing

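The members called stayed at 0 under all 19 alternatives. Over all genes, 98 were called with the filter at 5 CPM, 360 on totals without crystallin reads, 133 by DESeq2 (which gave no adjusted p to 5717 genes), 497 at an adjusted p of 0.1, and 0 to 4 with 1 library left out, the 4 without CT23 replicate 3. Of 142 member folds under alternatives, 131 kept their direction and 0 passed the threshold; Ednrb, Gpnmb and Mbp kept it under all 18, with ranges of -0.39 to -0.11, -0.31 to -0.024 and -0.35 to -0.099. Taking out crystallin reads turned the folds of Kit to 0.0051 and Cnp to 0.12, and raised those of Sox10, Cd59a and Pmp22 to 0.22, 0.30 and 0.23, as the median over all genes tested moved to 0.17. Leaving out CT23 replicates 1 and 2 turned Sox10 to -0.0042, Kit to 0.11, Cd59a to -0.0072 and Pmp22 to -0.11, with the lone CT23 library assumed to vary like the others. With 1 library left out the folds ran from -0.0095 to 0.11 for Sox10, -0.27 to -0.040 for Kit, -0.023 to 0.20 for Cd59a, -0.082 to 0.21 for Pmp22 and -0.11 to 0.11 for Cnp. The causes were not tested. The replicate number as a block gave 0 member calls and 0 calls over all genes; deviations of same-numbered libraries correlated at -0.255, 0.383 and -0.0418, and not every library correlated best with its own number, so the number was not taken to pair them. Depth limits Kit, Cnp and Hdc, whose reads number under 100 in every library. It also limits Sox10, at 96 to 118 reads a library.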
